A study of Mus musculus with 6 samples.

Results

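The subject is a set of 68 genes that were expressed in the adult mouse retina and had at most 1/2 of their wild-type level in retinas labelled Samd7 KO, out of 49997 genes in the deposited table. The members were selected on measured values: a mean of at least 100 normalized reads over the WT libraries, a mean over the Samd7 KO libraries at least 2-fold lower, and every Samd7 KO library below every WT library. Of 14072 genes with a WT mean of at least 100, 113 met these conditions (0.803%); 33 were dropped as predicted, Rik or pseudogene symbols and 12 as named genes. Because the difference between the groups chose the genes, their own folds are a description and carry no test, and groups that do not overlap are a condition of the set, true of every member.

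RNA was sequenced from 6 retinas of male mice, 1 retina per library: 3 labelled Samd7 knockout with the allele note -10A and taken at postnatal day 31, and 3 of c57Bl6/j wild-type mice taken at postnatal day 36. No strain is given for the Samd7 KO mice, and genotype, age and any background difference cannot be told apart. Nothing in the labels tells whether the retinas within a group are from different mice, and a p-value here reflects the spread among 3 retinas, which may be technical. The recovered reads summed to 44.2, 48.6 and 53.1 M in Samd7 KO libraries 1 to 3, and to 62.8, 47.7 and 55.4 M in WT libraries 1 to 3. Each value is a gene's reads after scaling by the library's DESeq2 size factor, termed normalized reads here, and a fold is the ratio of both group means.

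Samd7 is a sterile alpha motif protein of photoreceptors that works with Polycomb repressive complexes, which keep genes silent, and it is known for holding back genes of other cell types in rods and cones. Retinal tissue holds mostly rods, with fewer cones, interneurons, ganglion cells and glia, and a dissected retina can carry pigment epithelium, lens, vessel or blood cells along. In whole retinas, fewer cells of a type and less RNA per cell cannot be told apart.

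Samd7 transcripts were higher, not lower, under the knockout label: 57837, 45755 and 44932 normalized reads in libraries labelled Samd7 KO 1 to 3, against 6349, 8141 and 8122 in WT libraries 1 to 3 (6.57-fold higher, limma adjusted p = 1.54e-08). An altered allele that is still transcribed would be counted too, and the position of the change within Samd7 is not in the labels; the levels therefore do not check the label, and directions below are those of the libraries labelled Samd7 KO. The retina label matched the markers: 19 rod genes outside the set summed to 3270710 to 3486800 normalized reads in the Samd7 KO libraries and to 5288770 to 5693090 in the WT libraries. The library WT 3 stood apart in lens crystallins, of which 14 genes outside the set summed to 113 to 213 normalized reads in the Samd7 KO libraries, 127 and 137 in WT 1 and WT 2, and 8697 in WT 3.

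Members were lower by a median of 2.50-fold, between 2.0-fold (Slc7a3) and 27.5-fold (Cryba2). In all, 34 members were at least 2.5-fold lower, 21 at least 3-fold and 11 at least 4-fold. The WT means ran from 106 (Ribc2) to 29682 normalized reads (Fscn2), and 30 members had a WT mean of at least 1000. The lowest WT library was at least 1.5 times the highest Samd7 KO library for 60 of the 68. The 2-fold and no-overlap conditions of the rule largely set this count. No share over all expressed genes was taken for it, so nothing is read from it. The shares over all 14072 expressed genes were 17.6% for every Samd7 KO library lying below every WT library, and 0.874% for a mean at most 1/2 of the WT mean. Of 67 members that passed the filter on low values, limma called 66 lower at an adjusted p under 0.05, where the fit over 20277 genes called 5.21% lower and 6.79% higher; nothing is read from this count, since the rule used the same contrast. Crybb3 was the member not called, and Cryba2 was not tested because 5 of its 6 libraries had under 10 normalized reads. In the authors' deposited table, 20 of the 68 had an adjusted p under 0.05 for being lower by more than a log2 fold change of 1, against 0.128% of the genes with a value in that table; this too rests on the contrast that chose them.

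**Figure D1:**
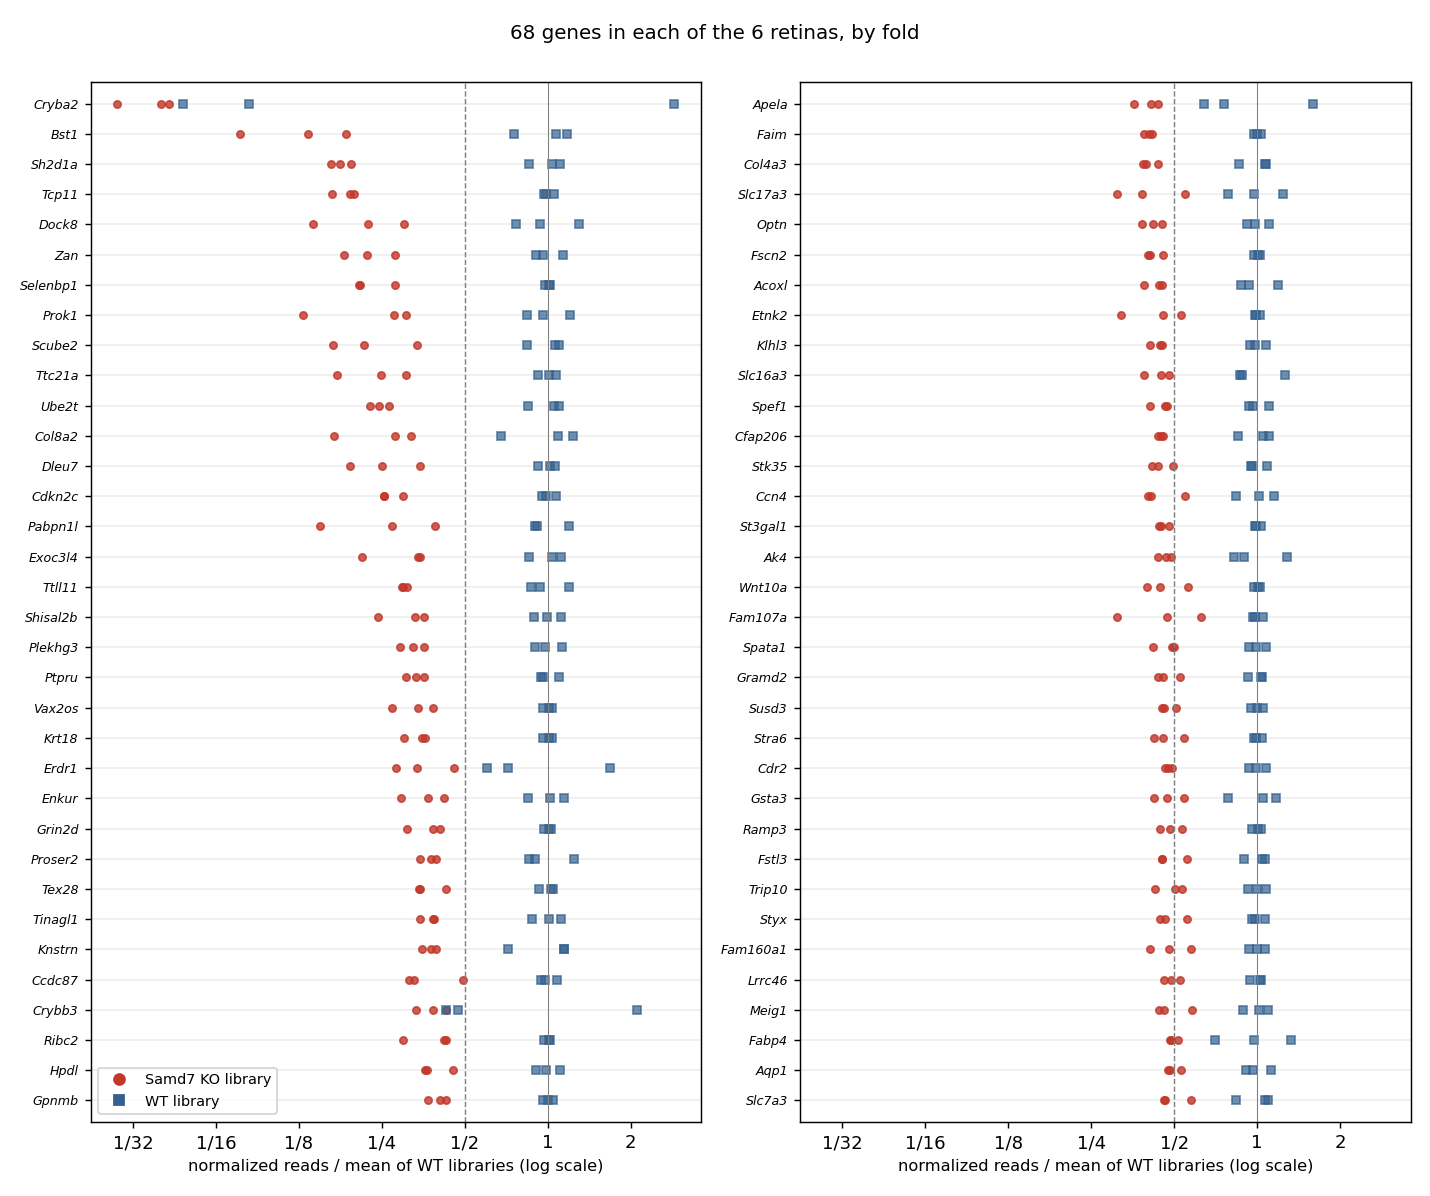
Each row is 1 of the 68 genes, ordered by fold, and each point is 1 library: Samd7 KO libraries as red circles and WT libraries as blue squares. The horizontal log axis gives normalized reads divided by the gene's mean over the 3 WT libraries, with the dashed line at 1/2. The WT squares of most genes lie close together; in 4 genes (Cryba2, Crybb3, Erdr1 and Apela) the highest WT library is at least 2 times the lowest.

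At the edges of the rule, the members just inside the 2-fold threshold were Slc7a3 (2.0-fold), Aqp1 (2.02), Fabp4 (2.02), Meig1 (2.03) and Lrrc46 (2.04). Just outside it lay Ceacam1 (1.99), the rod channel subunit Cngb1 (1.99), Mirc35hg (1.98), Fbxo36 (1.98) and Col4a4 (1.98). Just above the WT mean of 100 were Ribc2 (106), Exoc3l4 (108), Cryba2 (114), Slc17a3 (120) and Enkur (131), and just below it Baiap2l2 (97.7), AI463170 (96.5), Mir17hg (96.4), Mcm10 (96.0) and Crybb1 (95.1). With the same symbols dropped, a further 8 genes were at least 2-fold lower but had overlapping groups. Of these, 6 were crystallins whose highest library by far was WT 3 (Crygs, Crybb2, Cryaa, Cryba1, Crygb and Crygc), beside Serpine3 and Pon1.

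**Figure D2:**
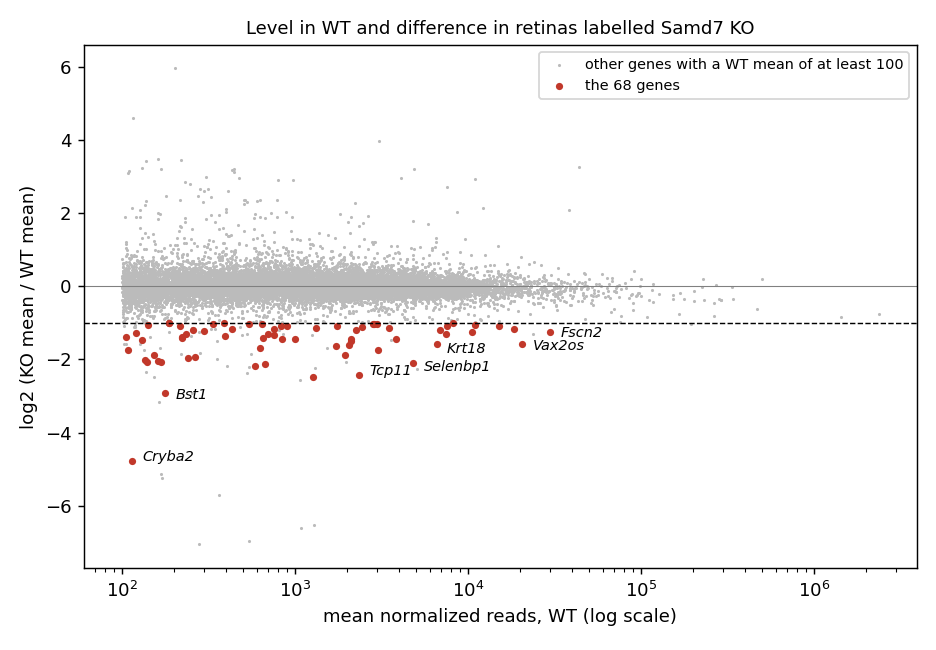
Each point is a gene with a WT mean of at least 100 normalized reads; the 68 genes are red and the others grey. The horizontal log axis gives the WT mean and the vertical axis the log2 ratio of the Samd7 KO mean to the WT mean, with the dashed line at a 2-fold lower level. The red genes spread over WT means of 106 to 29682, and grey points below the dashed line were dropped by symbol or had overlapping groups.

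Promoter sequence was not used by the rule. RefSeq windows of 300 bases (250 before and 50 after a transcript start, GRCm38.p6) were held for 56 members, 78 windows in all, 13 members having more than 1. Motifs of photoreceptor factors were searched on both strands; none of these letters contains another motif, but the matches themselves were not checked for shared bases. TAATCC, bound by the homeodomain factors CRX and OTX2, occurred in 3 of 78 member windows (3.85%), against 5.97% of 13697 windows of genes with a WT mean of at least 100 and 7.06% of all 32851 windows. TGCTGA, part of the site of NRL and other Maf factors, occurred in 16 (20.5%, against 15.6% and 19.5%), and AGGTCA, a unit of nuclear receptor sites, in 12 (15.4%, against 12.3% and 16.3%). For MEF2 factors, a pattern wider than their site was searched: CTA and TAG with 4 of any base between, where the site has A or T. It occurred in 0 member windows, against 3.04% of expressed and 3.69% of all windows, so matches need not be MEF2 sites. The Sp motif GGGCGG occurred in 39 member windows (50.0%, against 61.4% and 35.7%) and TATAAA in 7 (8.97%, against 7.27% and 13.6%). Member windows held a median of 14 CpG dinucleotides, against 20 in expressed and 7 in all windows, and their GC content was 60.2%, against 60.7% in expressed windows. A CpG ratio, observed over expected, of at least 0.6 was found in 47.4% of member windows, 67.6% of expressed windows and 35.8% of all windows; these shares are descriptions, and windows of 1 gene overlap.

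The 3 windows with TAATCC, those of Optn, Zan and Gsta3, are shown because they are all that the members hold, and that of Krt18 as an example of the 3 members (Krt18, Cdkn2c and Stk35) with a window that holds both TGCTGA and AGGTCA. Each is read 5′ to 3′ on the gene's strand; capitals mark matches to the CRX, NRL and nuclear receptor motifs on either strand, so that the reverse complement is also in capitals. A match is a description and not a binding site.
Optn, chr2:5064068-5064367, minus strand: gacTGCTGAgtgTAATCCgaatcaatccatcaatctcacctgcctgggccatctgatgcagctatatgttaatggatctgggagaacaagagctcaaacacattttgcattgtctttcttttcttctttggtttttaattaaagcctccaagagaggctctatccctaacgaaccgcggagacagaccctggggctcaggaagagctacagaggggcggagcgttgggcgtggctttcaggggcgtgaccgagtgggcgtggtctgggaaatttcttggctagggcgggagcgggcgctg
Zan, chr5:137477015-137477314, minus strand: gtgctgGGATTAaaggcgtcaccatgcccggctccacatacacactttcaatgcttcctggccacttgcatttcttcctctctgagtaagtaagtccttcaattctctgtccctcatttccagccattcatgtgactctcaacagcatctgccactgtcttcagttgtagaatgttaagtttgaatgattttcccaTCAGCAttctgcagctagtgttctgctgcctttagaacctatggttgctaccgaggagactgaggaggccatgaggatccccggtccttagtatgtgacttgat
Gsta3, chr1:21240335-21240634, plus strand: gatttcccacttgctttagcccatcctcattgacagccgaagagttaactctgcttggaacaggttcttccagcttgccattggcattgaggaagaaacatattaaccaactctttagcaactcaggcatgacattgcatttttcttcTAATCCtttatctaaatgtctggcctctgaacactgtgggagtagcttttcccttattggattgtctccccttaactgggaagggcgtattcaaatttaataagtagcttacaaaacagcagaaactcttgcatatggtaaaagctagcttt
Krt18, chr15:102027966-102028265, plus strand: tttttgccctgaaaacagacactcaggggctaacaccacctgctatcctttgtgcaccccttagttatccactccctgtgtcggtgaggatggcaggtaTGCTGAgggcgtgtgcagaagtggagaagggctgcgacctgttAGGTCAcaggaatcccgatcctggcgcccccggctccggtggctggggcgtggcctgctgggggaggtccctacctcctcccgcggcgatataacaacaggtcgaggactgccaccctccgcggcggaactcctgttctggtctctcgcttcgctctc

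Secreted factors, receptors and their adaptors made up 12 members, lower by a median of 2.62-fold. Bst1, a cell-surface enzyme that makes cyclic ADP-ribose, had 23.7, 13.5 and 32.7 normalized reads in Samd7 KO libraries 1 to 3, against 189, 208 and 133 in WT libraries 1 to 3 (7.58-fold lower). Its lowest WT library was 4.06 times its highest Samd7 KO library, and Samd7 KO 2 and WT 3 were the low library of their group. Sh2d1a, the adaptor of SLAM-family receptors known from lymphocytes, had 208, 223 and 245 normalized reads in the Samd7 KO libraries, against 1087, 1316 and 1407 in the WT libraries (225 ± 19.0 against 1270 ± 165, SD, n = 3 each; 5.64-fold lower). All 3 Samd7 KO libraries lay close together, and under every WT library as the rule requires. Lymphocyte and mast cell markers were nearly absent: 16 of 22 had under 10 normalized reads in all 6 libraries, 3 of them 0 throughout, and the list summed to 228 to 308 normalized reads in the Samd7 KO libraries and 267 to 307 in the WT libraries. The CD3 subunit genes of the T cell receptor complex, Cd3d, Cd3e and Cd3g, averaged 0 normalized reads in the Samd7 KO libraries, against 0.931, 1.59 and 0.314 in the WT libraries.

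Prok1, a ligand that acts on endothelial cells, had 18.1, 42.5 and 38.5 normalized reads in the Samd7 KO libraries, against 169, 117 and 134 in the WT libraries (4.23-fold lower). Scube2, a secreted protein that helps release Hedgehog ligands from cells, had 36.1, 56.0 and 27.9, against 185, 141 and 178 (4.19-fold lower). Both rest on few reads in the Samd7 KO libraries. The receptor tyrosine phosphatase gene Ptpru had 730, 682 and 627 normalized reads in the Samd7 KO libraries, against 2255, 1941 and 1969 in the WT libraries (3.02-fold lower). Grin2d, which encodes an NMDA receptor subunit, had 809, 648 and 858, against 2133, 2155 and 2035 (2.73-fold lower). The WT levels were 2055 ± 174 for Ptpru and 2108 ± 63.8 for Grin2d (SD, n = 3 each). Gpnmb, a glycoprotein of melanosomes and lysosomes, was 2.50-fold lower (304 ± 22.7 in Samd7 KO against 760 ± 31.4 in WT, SD, n = 3 each). Apela, a peptide ligand of the apelin receptor, averaged 94.6 in the Samd7 KO libraries against 377, 179 and 152 in WT libraries 1 to 3, so that WT 1 alone carried much of its 2.49-fold difference, 1.74-fold without that library. Ccn4 (2.20-fold lower, 1584 against 3489), is a matricellular protein of the CCN family, and Wnt10a (2.14-fold, 102 against 218) is a Wnt ligand. The receptor partner Ramp3 (2.06-fold, 1368 against 2816) and the activin-binding Fstl3 (2.06-fold, 163 against 336) complete the group.

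Genes of the cilium, the axoneme and sperm, pooled as 1 role, were 13 members, lower by a median of 2.65-fold. Roles were given to members only, with earlier results known, so this count has no share over all expressed genes beside it. Rods and cones carry a modified cilium, but an axoneme of the motile kind and sperm proteins are not what a retina is known for. Tcp11, a gene known from testis and sperm motility, had 465, 385 and 449 normalized reads in the Samd7 KO libraries, against 2454, 2310 and 2261 in the WT libraries (433 ± 42.6 against 2341 ± 100, SD, n = 3 each; 5.41-fold lower). Zan, the sperm protein zonadhesin that binds the egg coat, had 188, 148 and 122, against 765, 645 and 612 (4.41-fold lower). Both genes had WT libraries at least 3-fold over every Samd7 KO library, by factors of 4.86 for Tcp11 and 3.25 for Zan, and the Zan window printed above holds 1 TAATCC match. On a per-length scale, using the longest GENCODE transcript, Tcp11 had 218 normalized reads per kb in the Samd7 KO libraries and 1177 in the WT libraries, against 9.28 and 40.9 for Zan. Other sperm and testis genes were near absence in both groups: 12 of the 20 on the list had under 10 normalized reads in all 6 libraries, 4 of them 0 throughout, and of the 4 non-members tested limma called 0, with adjusted p between 0.348 and 0.747. At an unadjusted p under 0.05 the count was also 0, as it was with edgeR and DESeq2.

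Ttc21a, related to a subunit of intraflagellar transport complex A, had 49.7, 40.4 and 27.9 normalized reads in the Samd7 KO libraries, against 150, 165 and 173 in the WT libraries (4.13-fold lower). Ttll11, a tubulin polyglutamylase, had 931, 894 and 905, against 3618, 2834 and 2628 (3.33-fold lower). Enkur, a protein of axonemal microtubules and sperm, had 38.4, 55.0 and 48.1, against 111, 133 and 150 (2.79-fold lower). Of these 3 genes, Ttll11 varied least among the Samd7 KO libraries (910 ± 19.2, SD, n = 3; coefficient of variation 2.11%) and most among the WT libraries (17.3%). The testis-expressed genes Tex28 (310 against 837 normalized reads, 2.7-fold lower) and Ccdc87 (83.5 against 221, 2.65-fold) and the axonemal Ribc2 (40.5 against 106, 2.62-fold) followed. The microtubule-binding Spef1 (338 against 756) and the radial spoke gene Cfap206 (193 against 432) were each 2.24-fold lower, Spata1 2.13-fold (422 against 899), Lrrc46 2.04-fold (265 against 540) and Meig1, known from mouse spermiogenesis, 2.03-fold (192 against 389).

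On a list of axoneme and motile cilium genes drawn up after the members were known, 51 non-members were tested, of which 3 were called lower, 4 higher and 44 not called, with a median log2 difference of -0.08, against 0.0018 over all 20277 genes. The called lower count was 6 without Samd7 KO 1 and 1 without WT 2. The 66 listed genes outside the set summed to 15798 to 16367 normalized reads in the Samd7 KO libraries and 14860 to 15060 in the WT libraries. Among those called were Cfap57, lower at 25.4 in Samd7 KO against 59.1 in WT (limma adjusted p = 0.0101, and 0.0548 without WT 2), and the ciliary transcription factor Rfx2, higher at 1057 against 409 (limma adjusted p = 7.26e-05). The motile cilium regulator Foxj1 had 156 normalized reads in the Samd7 KO libraries and 205 in the WT libraries and was not called (limma adjusted p = 0.306).

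Of 9 members that act in the cytoskeleton and in trafficking, lower by a median of 2.40-fold, Fscn2 had the most normalized reads of the whole set. Fscn2, the actin-bundling fascin of photoreceptors, had 12122, 11892 and 13471 normalized reads in the Samd7 KO libraries, against 30341, 29768 and 28937 in the WT libraries (12495 ± 854 against 29682 ± 706, SD, n = 3 each; 2.38-fold lower). It also led per length, with 7294 normalized reads per kb in the Samd7 KO libraries and 17328 in the WT libraries. Optn, an autophagy receptor whose gene is linked to glaucoma, had 4030, 4743 and 4393 normalized reads, against 11644, 9656 and 10300 (2.40-fold lower). Both were separated by a gap of at least 2-fold between the highest Samd7 KO and the lowest WT library, and the Optn window printed above holds 1 TAATCC and 1 TGCTGA near its 5′ end. Of 25 non-member genes used by rods and cones alike, limma called 6 lower, 3 higher and 16 not, with 11 lower when Samd7 KO 2 was left out.

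Krt18, a keratin of simple epithelia that pairs with Krt8, had 2356, 1972 and 2292 normalized reads in the Samd7 KO libraries, against 6791, 6342 and 6620 in the WT libraries (2207 ± 206 against 6584 ± 227, SD, n = 3 each; 2.98-fold lower). Krt8 had only 29.3, 8.29 and 32.7 normalized reads in the Samd7 KO libraries and 57.3, 51.9 and 30.1 in the WT libraries, and was not called (limma adjusted p = 0.145). WT 3 was the lowest WT library of Krt8 and lay between the other WT libraries for Krt18. Dock8, an activator of Cdc42 known from leukocytes, had 82.4, 176 and 131 normalized reads in the Samd7 KO libraries, against 762, 549 and 450 in the WT libraries (4.52-fold lower). Plekhg3 had 556, 498 and 611, against 1931, 1676 and 1542 (3.09-fold lower). Exoc3l4, related to an exocyst subunit, had 37.2, 22.8 and 36.6, against 92.4, 111 and 120 (3.36-fold lower). Dock8 was the most variable of these 3 in both groups. Its nearest libraries were 2.55-fold apart, where groups without overlap are a condition of the rule. Of the markers of microglia and macrophages, leukocytes that a retina does hold, 18 were tested: limma called 14 higher (8 without Samd7 KO 3), 0 lower and 4 not (lower at an unadjusted p under 0.05, with edgeR and with DESeq2: 0 each), and they summed to 8532 to 9317 normalized reads in the Samd7 KO libraries and 5630 to 6207 in the WT libraries. The F-BAR protein gene Trip10 (1392 against 2853) and Fam160a1 (1447 against 2966), of a complex that links cargo to dynein, were each 2.05-fold lower, and the actin-associated Fam107a 2.14-fold, with 818, 1094 and 539 against 1828, 1687 and 1719.

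Basement membrane and other matrix genes were 3 members. Col8a2, a collagen VIII chain, had 67.7, 40.4 and 77.0 normalized reads in the Samd7 KO libraries, against 264, 299 and 164 in the WT libraries (3.93-fold lower). Its low library within each group was again Samd7 KO 2 and WT 3, the order seen for Bst1. Tinagl1, a matricellular protein, was 2.7-fold lower (373 ± 23.6 against 1005 ± 121), and Col4a3, a collagen IV chain of specialised basement membranes, 2.46-fold (283 ± 18.7 against 695 ± 84.7, SD, n = 3 each).

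Of 7 metabolic enzymes, lower by a median of 2.30-fold, Selenbp1 had the greatest fold. Selenbp1, a methanethiol oxidase, had 998, 1340 and 1006 normalized reads in the Samd7 KO libraries, against 4874, 4896 and 4688 in the WT libraries (1114 ± 195 against 4820 ± 114, SD, n = 3 each; 4.33-fold lower). Its lowest WT library was 3.50 times its highest Samd7 KO library. The other 6 lay between 2.09-fold and 2.56-fold: the mitochondrial enzyme gene Hpdl (153 against 392), the acyl-CoA oxidase relative Acoxl (127 against 296), the ethanolamine kinase Etnk2 (112 against 258), the sialyltransferase St3gal1 (605 against 1327), the mitochondrial adenylate kinase Ak4 (1128 against 2436) and the glutathione transferase Gsta3 (67.6 against 141). Ak4 was high in WT 1 (3115, against 2191 and 2002 in WT 2 and WT 3), and without that library its fold was 1.86.

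Cell cycle, survival and protein turnover genes were 8 members, lower by a median of 2.39-fold. Ube2t, the ubiquitin-conjugating enzyme of the Fanconi anaemia pathway, had 36.1, 33.2 and 30.8 normalized reads in the Samd7 KO libraries, against 116, 144 and 150 in the WT libraries (4.09-fold lower). Cdkn2c, an inhibitor of the kinases CDK4 and CDK6, had 585, 498 and 496, against 2087, 1918 and 1859 (526 ± 50.8 against 1955 ± 118, SD, n = 3 each; 3.72-fold lower). Faim, an inhibitor of apoptosis through Fas, had 3041, 3117 and 2923, against 7762, 7476 and 7304 (2.48-fold lower). Of these 3 genes, Faim varied least, by 3.23% in the Samd7 KO libraries and 3.08% in the WT libraries (coefficient of variation), and Ube2t by 7.99% and 13.4%. Stk35, a kinase, had 7673, 9166 and 8065 normalized reads, against 20151, 17659 and 17780 (2.23-fold lower). Cdr2, an antigen of paraneoplastic cerebellar degeneration, had 5058, 5160 and 5366, against 11742, 10217 and 10798 (2.10-fold lower). Both are among the 6 members with a WT mean of at least 10000. The remaining 3 were the spindle protein gene Knstrn (2.68-fold lower, 243 against 652), the ubiquitin ligase adaptor Klhl3 (2.30-fold, 984 against 2260) and the pseudophosphatase Styx (2.05-fold, 316 against 647).

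The 6 transporters and lipid carriers lay nearest to the 2-fold threshold, with a median of 2.07-fold. Aqp1, a water channel, had 3867, 3942 and 4335 normalized reads in the Samd7 KO libraries, against 9206, 7468 and 7865 in the WT libraries (2.02-fold lower). Slc16a3, the lactate exporter MCT4, had 3292, 2680 and 3093, against 8666, 6056 and 5967 (2.28-fold lower, 1.99-fold without WT 1, its highest library). Stra6, the vitamin A receptor, had 380, 354 and 451, against 866, 815 and 825 (2.11-fold lower). The organic anion transporter Slc17a3 was 2.43-fold lower (49.4 against 120), the fatty acid carrier Fabp4 2.02-fold (92.9 against 188) and the cationic amino acid transporter Slc7a3 2.0-fold (93.6 against 187). The groups of Fabp4, Slc17a3 and Slc7a3 came within 1.36-fold, 1.44-fold and 1.45-fold of each other at their nearest libraries.

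Among members with little described function, Susd3, a membrane protein with a sushi domain, had 6962, 6840 and 7682 normalized reads in the Samd7 KO libraries, against 15959, 14346 and 15171 in the WT libraries (2.12-fold lower). Per length it was second only to Fscn2 in WT among members, at 5050 normalized reads per kb in the Samd7 KO libraries and 10690 in the WT libraries. It is the member on the rod gene list, where limma called 13 of the 19 tested non-members lower, 1 higher and 5 not, with a median log2 difference of -0.47. Gramd2 had 3974, 3446 and 3305 normalized reads, against 7808, 7891 and 7051 (2.12-fold lower). The others were Dleu7 (69.5 against 265, 3.82-fold lower), Pabpn1l, known from oocytes and embryos (41.4 against 153, 3.70-fold), Shisal2b (193 against 626, 3.24-fold) and Proser2 (1419 against 3837, 2.7-fold). Of the pair annotated as a noncoding RNA or a transcribed pseudogene, Vax2os, a long noncoding RNA opposite the homeobox gene Vax2, had 7925, 5623 and 6982 normalized reads in the Samd7 KO libraries, against 19752, 21346 and 20812 in the WT libraries (6843 ± 1157 against 20637 ± 811, SD, n = 3 each; 3.02-fold lower). Erdr1, annotated as a transcribed pseudogene, had 954, 590 and 702, against 3524, 1260 and 1507 (2.80-fold lower), and without WT 1 the fold was 1.85. Erdr1 lies in a repeated region near the end of the X chromosome, where reads can be split between copies, so its level is uncertain.

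The lens crystallins Cryba2 and Crybb3 are members through 1 library. Cryba2 had 4.51, 3.11 and 4.81 normalized reads in the Samd7 KO libraries, against 9.41, 5.41 and 328 in the WT libraries, and Crybb3 had 94.8, 73.6 and 84.7, against 95.0, 105 and 465. Without WT 3 their folds were 1.79 and 1.19, so that neither met the rule; the lens list stood high in the same library, and its part in the result was not tested. Apart from these and Erdr1, no member's fold moved by over 1.5 times when any 1 library was left out.

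Across replicates, the members' median coefficient of variation was 11.7% in the Samd7 KO libraries and 9.99% in the WT libraries, against 8.76% and 6.87% over 14072 genes. Among members, WT 1 was the highest WT library for 37, WT 2 for 17 and WT 3 for 14. Because the rule asks for a high WT mean and groups that do not overlap, these spreads are not independent of it.

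Pigment epithelium markers differed between the groups and also within each group. Of 25 non-members tested, limma called 11 lower (7 without WT 2), 2 higher and 12 not, with a median log2 difference of -0.80. Of the 11, 7 met the numeric conditions of the rule and were dropped from the set by name (Lrat, Rdh5, Rgr, Rpe65, Slc16a8, Slc6a20a and Ttr), so that 4 calls are of genes the rule did not reach. The 25 genes outside the set summed to 44370 to 49614 normalized reads in the Samd7 KO libraries and 46092 to 52661 in the WT libraries, ranges that overlap. Such a sum is weighted to the most abundant genes of the list, and the 7 dropped markers add little to it. Rgr, the most abundant of them in WT, had 428, 284 and 688 in the Samd7 KO libraries, against 2278, 2334 and 1303 in the WT libraries. The groups of all 7 did not overlap, as the numeric conditions require. In 6 of these 7 dropped markers, genes of the visual cycle and of transport in that tissue, Samd7 KO 2 was lowest, then Samd7 KO 1 and Samd7 KO 3, and WT 3 was the lowest WT library. Rpe65, the retinoid isomerase of that tissue, had 65.5, 41.5 and 162 normalized reads in the Samd7 KO libraries, against 427, 409 and 221 in the WT libraries. The same order held for 8 of 68 members (11.8%), namely Bst1, Col8a2, Pabpn1l, Plekhg3, Grin2d, Fscn2, Cfap206 and Lrrc46, against 5.14% of 14072 expressed genes. A size condition asked for WT 3 at most 0.75 of the mean of WT 1 and WT 2, and Samd7 KO 3 at least 1.5 times Samd7 KO 2. Whether or not the order held, it was met by 6 of the 7 markers, 26 of the 14072 genes and 2 members. The order was taken from these markers and the cuts were set with earlier results known, so the count of 6 is a description. The 26 genes include these 6 markers and 2 members. The 2 members were Bst1, where Samd7 KO 3 was 2.43 times Samd7 KO 2 and WT 3 was 0.669 of the other WT libraries, and Col8a2, with 1.9 and 0.582. Krt18 and Stra6, the members on the pigment epithelium list, were not low in WT 3, which was 1.01 and 0.981 of the other WT libraries. Among the Samd7 KO libraries, Samd7 KO 2 was the lowest for both, and Samd7 KO 3 was 1.16 times Samd7 KO 2 for Krt18 and 1.28 times for Stra6, which followed the order of the markers there. The part of pigment epithelium in the members' differences was not tested.

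**Figure D3:**
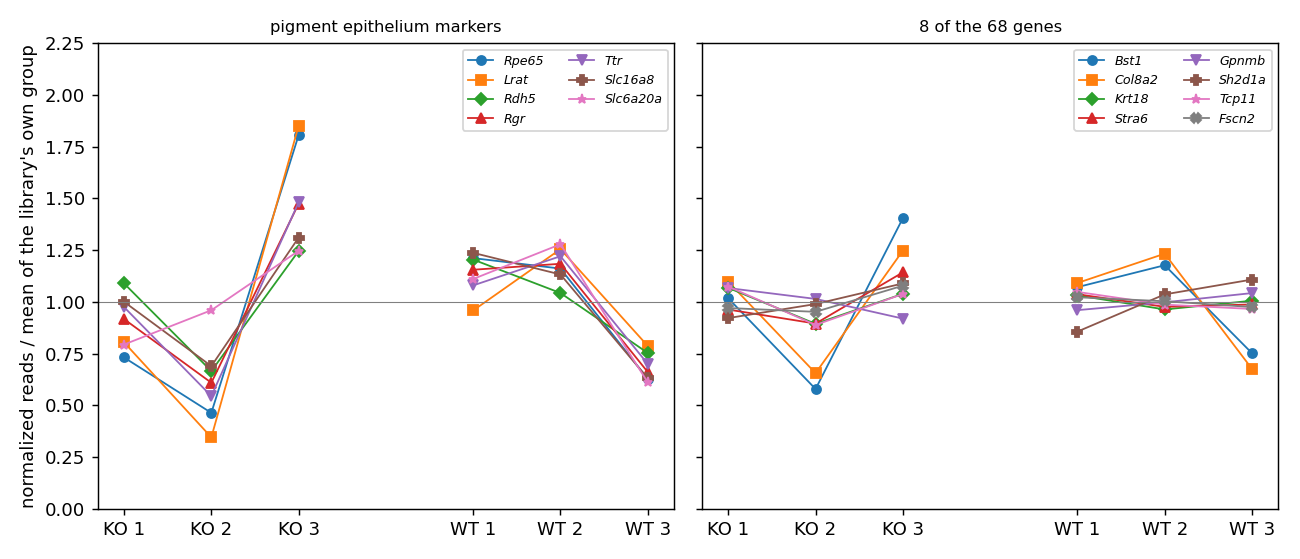
Each line is a gene; the horizontal axis names the 6 libraries, Samd7 KO 1 to 3 at the left and WT 1 to 3 at the right, and the vertical axis gives normalized reads divided by the mean of the library's own group, so that the difference between groups is removed. On the left, 7 pigment epithelium markers are all high in Samd7 KO 3 and low in WT 3. On the right, 8 of the 68 genes are shown: Bst1 and Col8a2 run the same way, while Krt18, Stra6, Gpnmb, Sh2d1a, Tcp11 and Fscn2 stay flatter.

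Beside these, cone genes were called higher in 9 of 15, lower in 1 and not in 5, and red blood cell markers higher in 5 of 5. Markers of astrocytes and reactive glia were higher in 11 of 14 and lower in 1, of Müller glia higher in 6 of 15 and lower in 2, and of vessels higher in 4 of 16 and lower in 1. The higher count fell to 3 for Müller glia without WT 3, and to 2 for vessels without WT 2 or WT 3. Bipolar (2 of 18 lower, 1 higher), amacrine (1 of 16 lower, 0 higher), ganglion (1 of 14 each way) and horizontal cell markers (0 of 8 either way) were mostly not called, as were genes of the photoreceptor synapse (2 of 20 lower, 4 higher) and of the clock and early response (3 of 23 lower, 1 higher). Leaving out 1 library gave 0 to 2 bipolar markers lower and 1 to 4 higher, 0 to 2 ganglion markers lower and 0 to 1 higher, and 1 to 2 synapse genes lower and 1 to 7 higher. Limma also called 0 of 4 lens, 0 of 6 lymphocyte and mast cell and 0 of 1 neutrophil markers. Over these 3 lists and the horizontal cell list, 3 markers were lower and 2 higher at an unadjusted p under 0.05, and edgeR and DESeq2 called 0 each. Of 9 cornea, iris and ciliary body markers 1 was called, which was higher. None of the 68 genes is on the lists of these cell types other than Cryba2 and Crybb3 on the lens list.

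The genes next to the members were not chosen by the rule. For each member the nearest tested non-member on either side was taken, 135 genes in all, of which limma called 26 lower (19.3%) and 4 higher (2.96%), against 5.21% and 6.79% of all tested genes. Leaving out neighbours that overlap their member by RefSeq position or themselves meet the numeric conditions left 115. Of these, 19 were lower (16.5%) and 4 higher (3.48%), at a median log2 difference of -0.11. Genes that overlap their member only in GENCODE stayed in, among them Rnaseh2b, called lower, and Fbxl5, Tenm1, Kdelr1 and Ephb4, not called. At gaps up to 10 kb 7 of 46 were lower, and at larger gaps 12 of 69. In all, 25 of 68 members had at least 1 neighbour called lower. Without WT 2 or without WT 3, 19 neighbours were called in either direction, against 30 with all 6 libraries.

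The neighbours with the smallest adjusted p lay beside Tex28, Proser2, Hpdl and Optn. Opn1mw, the middle-wavelength cone opsin, lies 0.153 kb from Tex28 and was 2.47-fold lower (9619 ± 297 in Samd7 KO against 23757 ± 877 in WT, n = 3 each, SD), beside 2.7-fold for Tex28; it was dropped from the set by name. The predicted gene Gm10857, beside Proser2, had 3.18 against 47.9 normalized reads (limma adjusted p = 6.22e-05), and Gm12996, beside Hpdl, 98.1 against 252; Gm12996, like Opn1mw, met the numeric conditions and was dropped by symbol. Mcm10, a replication factor 7.73 kb from Optn, had 16.9, 21.8 and 29.8 normalized reads in the Samd7 KO libraries, against 117, 88.7 and 81.9 in the WT libraries (4.20-fold lower, limma adjusted p = 3.16e-04). Col4a4, which lies head to head with Col4a3, was 1.98-fold lower (171 ± 12.8 in Samd7 KO against 338 ± 28.0 in WT, n = 3 each, SD; adjusted p by limma 4.75e-04). Either side of Slc17a3, Slc17a1 was 1.85-fold lower (126 against 234, limma adjusted p = 0.00135) and Slc17a2 2.11-fold (25.7 against 54.2, limma adjusted p = 0.0228). The Slc17a2 call was lost with no filter, with a replicate block and without WT 1 or WT 3, where its adjusted p reached 0.111 (0.0191 to 0.111 over 11 alternatives). Cd38, the relative of Bst1 beside it on chromosome 5, was higher, at 65.7 in Samd7 KO and 36.1 in WT (1.82-fold, limma adjusted p = 0.0258). Its call was lost in 6 of 11 alternatives, among them those without Samd7 KO 2, Samd7 KO 3, WT 2 or WT 3, with adjusted p between 0.0255 and 0.0920.

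Of 586 tested non-members that share a symbol stem with a member, limma called 38 lower (6.48%) and 40 higher (6.83%), against 5.21% and 6.79% of all tested genes. A shared stem need not mean descent, as in Fam and Ccdc symbols, which make up 230 of the 586. Within gene families some relatives were called in the opposite direction to the member. Fabp7, a fatty acid carrier of glia, was 137-fold higher (8706 ± 832 in Samd7 KO against 63.5 ± 3.08 in WT, n = 3 each, SD; adjusted p by limma 3.57e-12), where Fabp4 was 2.02-fold lower. St3gal3 was 4.84-fold higher (10774 against 2226, limma adjusted p = 4.36e-09), where St3gal1 was 2.19-fold lower. Grin2c was 5.08-fold higher (1094 against 215, limma adjusted p = 4.60e-07), where Grin2d was 2.73-fold lower. Scube1 was 4.63-fold higher (206 against 44.6, limma adjusted p = 1.14e-05), Shisal1 3.23-fold higher (19081 against 5902, limma adjusted p = 6.07e-07) and Col4a5 1.98-fold higher (499 against 252, limma adjusted p = 0.00131). In the same direction as its member, Gramd1a was lower 1.56-fold (limma adjusted p = 6.06e-04) and Cdkn1a 1.57-fold (limma adjusted p = 0.00771). Slc16a8, a lactate transporter of the pigment epithelium (153 against 558), is a non-member only because it was dropped by name, so its 3.64-fold lower level is a description; it is 1 of the 38 called lower. Of 10 other Dock genes, 6 other aquaporins and 10 other Slc7a genes limma called 0, with 1 lower and 7 higher at an unadjusted p under 0.05; edgeR called 0 and DESeq2 1, which was higher. A p that misses the threshold does not show that the others were level.

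**Figure D4:**
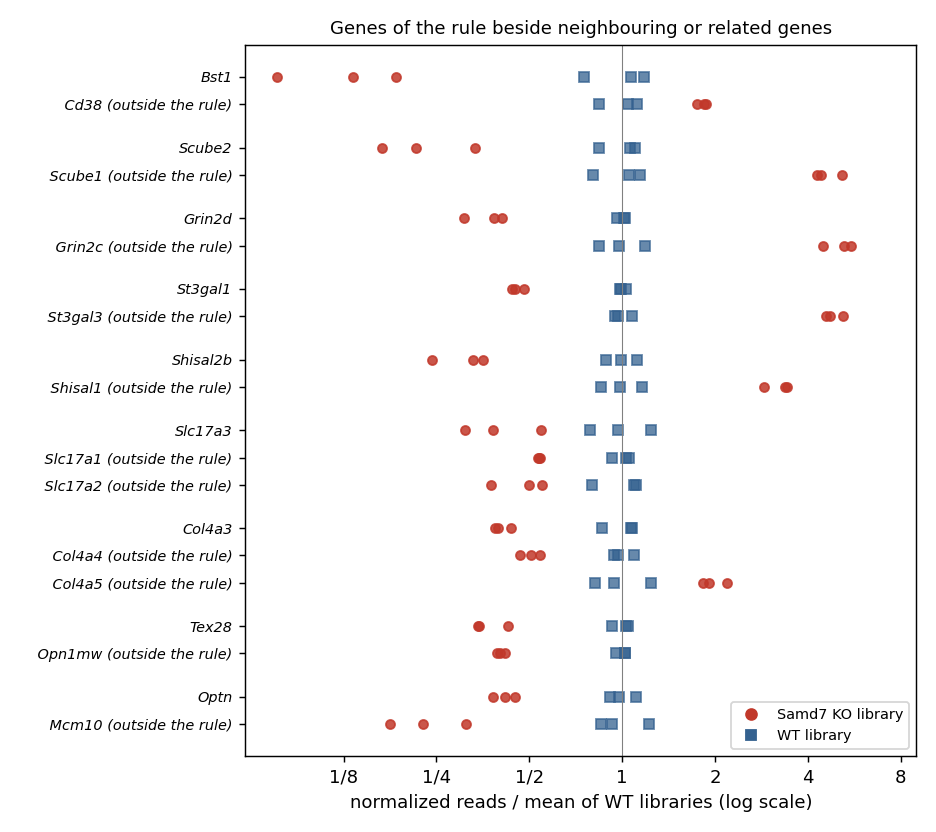
Each row is a gene, grouped as a member followed by neighbouring or related genes outside the set, and each point is 1 library: Samd7 KO as red circles and WT as blue squares. The horizontal log axis gives normalized reads divided by the gene's WT mean. Opn1mw, Mcm10, Col4a4, Slc17a1 and Slc17a2 lie left of 1 in the Samd7 KO libraries with their member, and Cd38, Scube1, Grin2c, St3gal3, Shisal1 and Col4a5 lie right of 1.

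No label or header tells whether the counting used strand, and 16 members overlap another tested gene in GENCODE, 15 of them on the opposite strand, so that some reads of these pairs cannot be told apart. Ttc21a overlaps the microglial receptor gene Cx3cr1, which was higher (283 against 127 normalized reads, limma adjusted p = 4.81e-04), opposite to Ttc21a. Dleu7 overlaps Rnaseh2b, which was 1.69-fold lower (539 against 912, limma adjusted p = 6.27e-04), against 3.82-fold for Dleu7. Sh2d1a overlaps Tenm1 (247 against 268), Bst1 overlaps Fbxl5 (12549 against 13039) and Zan overlaps Ephb4 (351 against 359), none of which was called (limma adjusted p = 0.635, 0.681 and 0.995). Zan also overlaps Rpl36-ps9, which was lower (26.4 against 87.5, limma adjusted p = 0.00280). Ttll11 overlaps Gm10829, also lower (6.37 against 44.1, limma adjusted p = 0.0203). Plekhg3 overlaps AI463170, lower at 41.1 against 96.5 (limma adjusted p = 0.0180), and Sptb, not called (3500 against 3687, limma adjusted p = 0.794). Vax2os overlaps Vax2, at 4420 against 5831 normalized reads.

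Members lay on most chromosomes. Chromosome 2 held 9 (13.2%, against 7.99% of expressed genes), chromosome 4 held 7, chromosome 1 held 6 and chromosome 3 held 5, while chromosomes 16 and 18 held 0. A pair of members lay within 1.5 Mb in 5 places: Wnt10a and Cryba2 (85.8 kb apart), Ccn4 and St3gal1 (180 kb), Fscn2 and Slc16a3 (580 kb), Optn and Proser2 (1034 kb) and Stk35 and Spef1 (1338 kb). Between Ccn4 and St3gal1 there were 2 tested genes, and between Fscn2 and Slc16a3 there were 36.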

How the data were processed

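The deposited table holds gene-level signal in 6 libraries, which per the file headers and the values are the authors' DESeq2-normalized reads (each library scaled by its own size factor). DESeq2's p-values, Wald score, log2 fold change and standard error were deposited by the authors beside them. Per the labels' protocols, each library came from the RNA of 1 retina, prepared with a kit for small inputs and 15 cycles of amplification; molecular identifiers are not mentioned. The submitters' processing notes name DRAGEN, cutadapt 3.0, STAR 2.7.3a, HTSeq 0.12.4, SAMtools 1.9, DESeq2 and the builds GRCm38 and mm10, with no roles. Dividing each library by its smallest step gave whole reads within 0.01 for all 166478 values above 0 (100%), and 16670 genes were 0 throughout.

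The rule was applied to the deposited values. Separately, limma-trend was fitted on log2(value + 1) to the 20277 genes with at least 10 normalized reads in at least 3 libraries, two-sided, with Benjamini-Hochberg adjustment over all of them and calls at an adjusted p under 0.05; the log2 scale understates changes of low genes. Alternatives were edgeR quasi-likelihood with TMM factors (2494 genes called) and DESeq2 (2883) on the recovered reads, a pseudocount of 0.5, no filter, a replicate block, leaving out each library and other limits of the rule; medians in place of means were added after seeing the data. The fits were tested on simulated data. The tools were edgeR 4.0.16, DESeq2 1.42.0 and limma 3.58.1, run in R 4.3.3. Positions and promoters come from RefSeq GRCm38.p6, overlaps and lengths from GENCODE (GRCm38).

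The members, lists, roles and tests were chosen with earlier results of these data known. The naming rule took the 25 members with the largest folds, the 10 with the highest WT means, those at the thresholds, on a list, or sensitive to 1 library, and up to 4 neighbours, relatives or list genes by adjusted p. All 68 members are named; other genes outside that rule (such as Krt8, Cd3d, Cfap57, Foxj1, Cd38, Slc17a1 and the overlapping genes) were chosen after their values were seen.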

Additional observations from a re-analysis of the deposited data

How the results depend on the processing

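The set itself depends on its limits: 21 genes at 3-fold and 247 at 1.5-fold in place of 68, 93 with a WT mean of at least 50, 54 with at least 200, 76 where the groups may overlap, 70 with medians (61 shared) and 68 with TMM factors. Scaling to total reads, which moves the median of all tested genes to 0.058 from 0.0018 on the log2 scale, gave 57, all of them members. Leaving out 1 library gave 69 to 83 genes, with 60 to 66 of the 68 among them. Members called lower numbered 64 to 66 without 1 library and 66 with edgeR, DESeq2, another pseudocount, no filter or a replicate block. Nothing is read from these counts, since the rule used the same contrast. The main fit over all 6 libraries called 5.21% of tested genes lower. Without 1 library, genes changed ranged from 1313 to 3247 (lower 509 to 1385, higher 804 to 1862), called neighbours from 19 to 35, called relatives from 46 to 114 and called list genes from 81 to 115; the lowest counts were those without WT 3, shared with WT 2 for neighbours. The cause was not tested.

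Replicate numbers did not pair the samples: same-numbered libraries deviated together with correlations of -0.182, -0.133 and -0.0141. With the replicate block, 1624 genes were called, 656 of them lower and 968 higher, and 22 neighbours, 53 relatives and 90 list genes. Counting error limits the members with under 50 normalized reads in the Samd7 KO libraries, and intervals for it are not given because amplified copies cannot be separated.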
